A study of Mus musculus with 4 samples.

Results

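The 9 genes described here encode the enzymes that write, copy and remove DNA methylation in mouse cells: Dnmt1, Uhrf1, Dnmt3a, Dnmt3b, Dnmt3l, Tet1, Tet2, Tet3 and Tdg. They were picked by name, as the rows of the deposited tables whose symbol, split at commas, was one of them. Each had 1 row of its own among 14099 named rows, and all 9 were among the 11912 rows tested. By role, 2 maintain methylation (Dnmt1, Uhrf1), 3 add it de novo (Dnmt3a, Dnmt3b, Dnmt3l) and 4 take part in its removal (Tet1, Tet2, Tet3, Tdg).

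Polyadenylated RNA was sequenced from mouse embryonic stem cells (ESCs), with 2 libraries labelled Naa10-KO and 2 labelled WT. Naa10, an X-linked gene, encodes the catalytic subunit of NatA, which acetylates the N-termini of proteins, and the series title names DNA methylation and genomic imprinting as the question. Both genotypes were hybrids of C57BL/6 mothers that carried the Naa10 deletion and wild-type JF1 fathers, taken from the inner cell mass of littermate blastocysts. All had 5 passages on irradiated mouse fibroblast feeders and 5 without them, in N2B27 medium with the Mek inhibitor PD325901, the Gsk3 inhibitor Chir99021 and LIF. The titles call the 2 libraries of each genotype biological replicates. The sources used here do not give the deleted part of Naa10, the sex of the lines or how many lines the libraries came from. The p-values therefore cover only library-to-library spread, which may not include the spread between lines.

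A methyl group on the cytosine of a CpG is copied to the new strand after replication by Dnmt1, which Uhrf1 brings to hemimethylated sites. Dnmt3a and Dnmt3b methylate unmarked sites, and Dnmt3l has no catalytic activity of its own but binds both and stimulates them. Tet enzymes oxidise methylcytosine, and Tdg, a DNA glycosylase, excises the oxidised bases for repair. ESCs kept under Mek and Gsk3 inhibition are known for low genome-wide methylation, and Dnmt3b and Dnmt3l are known to be higher in serum or primed cultures than under these inhibitors.

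The unit is RPKM (reads scaled to transcript length and to the mapped reads of a library), so levels of different genes can be set side by side per length. Steps between low values put the depth at an estimated 73500000 and 85100000 fragments for the Naa10-KO libraries and 50600000 and 51900000 for WT. These estimates assume fragments of 200 nt and rest on 35 to 54 genes per library, so they are rough. Over all tested rows, the 2 Naa10-KO libraries differed by a median of 0.25 on the log2(RPKM + 1) scale and the 2 WT libraries by 0.05. The row that holds Naa10, joined with its neighbour Renbp, had 28.9 and 34.4 RPKM in Naa10-KO and 105 and 106 RPKM in WT. It fell to 30.1% of its WT level (log2 change -1.71, SE 0.11, limma adjusted p = 0.0342; 0.0821 over rows without zeros or small RNAs). Of 9 ESC markers none was at 0, and their summed level was 2352 and 3160 RPKM in Naa10-KO and 2519 and 2503 RPKM in WT. That sum hides unlike markers. In Naa10-KO replicate 1, Tbx3, Klf4, Nanog and Sox2 were at 49.7%, 59.4%, 68.3% and 71.4% of their WT means. In replicate 2 the same genes were at 95.5%, 101%, 122% and 119%. Pou5f1, the largest part of the sum, was at 114% and 120%, and Tdgf1 at 118% and 128%. Esrrb, Klf2 and Zfp42 were below their WT means in replicate 1 and above in replicate 2.

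Upstream sequences are shown for 5 members: Dnmt3a, Dnmt3b, Dnmt3l, Tet1 and Tet2. Dnmt3a and Dnmt3b stood on opposite sides of WT in Naa10-KO, as did Tet1 and Tet2. Tet3 also stood opposite Tet2, and its sequence is left out here. Each is the 250 bases before an annotated start, from RefSeq on build GRCm38.p6, printed on the strand of the gene with every CpG in capitals. The expression values rest on mm9, so these windows serve as context and not as coordinates of the measured reads. The windows are chr12:3806730-3806979 (plus strand) and chr12:3891494-3891743 (plus) for the outermost and the internal start of Dnmt3a, chr2:153649199-153649448 (plus) for Dnmt3b, chr10:78042037-78042286 (plus) for the outermost start of Dnmt3l, chr10:62887325-62887574 (minus) for Tet1 and chr3:133544391-133544640 (minus) for Tet2.
Dnmt3a, outermost start: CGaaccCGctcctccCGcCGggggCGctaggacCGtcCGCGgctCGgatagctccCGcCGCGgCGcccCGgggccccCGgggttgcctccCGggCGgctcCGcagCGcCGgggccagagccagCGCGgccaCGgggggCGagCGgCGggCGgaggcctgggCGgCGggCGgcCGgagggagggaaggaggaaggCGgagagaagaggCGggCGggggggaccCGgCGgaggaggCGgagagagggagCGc
Dnmt3a, internal start: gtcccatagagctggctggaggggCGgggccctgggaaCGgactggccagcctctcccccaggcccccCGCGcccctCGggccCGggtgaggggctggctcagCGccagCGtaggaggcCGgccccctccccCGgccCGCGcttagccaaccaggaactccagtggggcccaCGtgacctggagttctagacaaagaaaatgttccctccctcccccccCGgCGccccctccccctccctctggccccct
Dnmt3b: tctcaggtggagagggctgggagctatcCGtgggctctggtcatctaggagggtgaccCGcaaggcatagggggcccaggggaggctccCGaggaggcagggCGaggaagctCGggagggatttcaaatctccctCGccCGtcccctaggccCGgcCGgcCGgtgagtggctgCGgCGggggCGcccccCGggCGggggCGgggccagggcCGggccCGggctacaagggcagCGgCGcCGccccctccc
Dnmt3l, outermost start: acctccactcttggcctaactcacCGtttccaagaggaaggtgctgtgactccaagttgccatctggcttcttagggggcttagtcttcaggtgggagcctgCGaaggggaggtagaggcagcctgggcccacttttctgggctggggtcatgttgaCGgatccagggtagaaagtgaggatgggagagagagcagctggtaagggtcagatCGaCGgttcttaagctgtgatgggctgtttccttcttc
Tet1: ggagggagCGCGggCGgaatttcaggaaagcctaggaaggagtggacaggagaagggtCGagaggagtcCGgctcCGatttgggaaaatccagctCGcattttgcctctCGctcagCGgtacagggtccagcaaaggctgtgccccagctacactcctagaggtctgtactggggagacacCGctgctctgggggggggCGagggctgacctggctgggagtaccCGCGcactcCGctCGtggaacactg
Tet2: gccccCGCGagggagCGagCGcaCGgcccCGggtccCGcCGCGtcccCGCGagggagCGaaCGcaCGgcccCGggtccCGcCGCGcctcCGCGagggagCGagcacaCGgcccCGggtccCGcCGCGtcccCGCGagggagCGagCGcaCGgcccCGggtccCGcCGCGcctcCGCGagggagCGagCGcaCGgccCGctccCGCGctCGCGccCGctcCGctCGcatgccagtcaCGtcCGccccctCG

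CpG density differed widely among these windows. The window of Tet2 held 51 CpG, more than 99.9% of the 32851 windows of the same length in the table. The outermost start of Dnmt3a had 38 CpG and its internal start 15. At the internal start the annotation begins shorter transcripts; the short isoform is known as the main Dnmt3a product of mouse ESCs, but the deposited rows do not separate isoforms. Dnmt3b had 21 CpG and Tet1 had 15, while the 3 windows of Dnmt3l had 5, 4 and 3, below the median of 6 over all windows. The deposited rows do not show which of the 3 Dnmt3l starts was used in these cells. The GC box GGGCGG, searched on both strands, occurred in 32.7% of all windows; it was found in the windows of Dnmt3a, Dnmt3b, Tet1 and Tet2, and in 1 of the 3 windows of Dnmt3l. Within the de novo group, Dnmt3b and Dnmt3l had the most similar values over the libraries once each gene was centred on its mean. Their CpG content was unlike, 21 against at most 5. A link between CpG content and expression was not tested.

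The levels had the same order in both genotypes when the libraries of each were averaged. Dnmt3l was highest, at 227 RPKM in Naa10-KO and 171 RPKM in WT, followed by Uhrf1, Dnmt1, Dnmt3b, Tdg, Tet2, Tet1, Dnmt3a and Tet3. Dnmt3l lay above 96.8% of tested rows in Naa10-KO and 95.6% in WT. Tet3 was the one member near the floor, above 9.72% of tested rows in Naa10-KO and 4.27% in WT. Within single libraries the order was less firm in Naa10-KO, where the ranges of Dnmt1 and Dnmt3b overlapped and those of Tet1 and Tet2 overlapped. In WT no neighbouring pair overlapped, although Dnmt3b and Tdg, and Tet1 and Dnmt3a, lay close to each other.

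**Figure D1:**
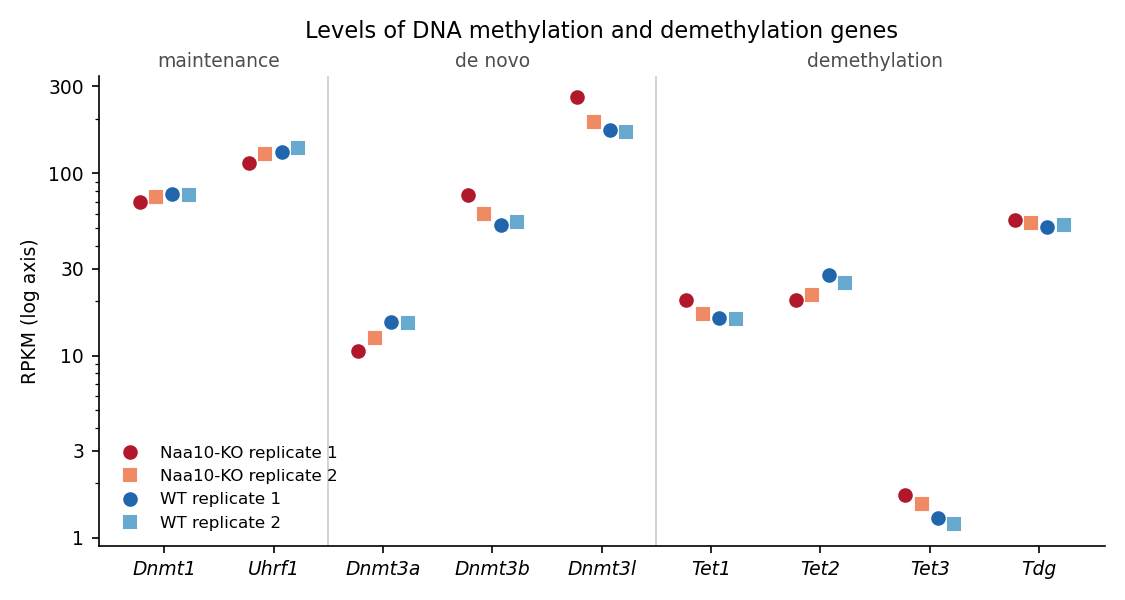
RPKM of the 9 genes in each of the 4 libraries on a log axis, with the Naa10-KO libraries left of the WT libraries and the genes grouped by role. Naa10-KO replicate 1 is the library farthest from the WT pair for each gene, with Dnmt3l at 262 RPKM and Dnmt3a at 10.6 RPKM.

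No member passed the test, yet for each of the 9 the genotypes did not overlap: the Naa10-KO pair lay wholly above or wholly below the WT pair. With limma and Benjamini-Hochberg adjustment over all 11912 tested rows, 0 of 9 had an adjusted p under 0.05, where 0.764% of all tested rows did. The adjusted p of the members ran from 0.191 for Tet2 to 0.526 for Tdg, and 2 of them, Dnmt3a and Tet2, had an unadjusted p under 0.05, as did 22.1% of all tested rows. The Naa10-KO pair lay wholly above the WT pair for 5 members, where 24.4% of all tested rows did so, and below for 4, where 34.9% did. Lying apart in either direction was common at large, in 59.3% of tested rows, so 9 of 9 is read against that share. The median absolute fitted difference of the members was 0.23, beside 0.22 over all tested rows.

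Among the maintenance genes, Dnmt1 had 69.9 and 74.0 RPKM in the Naa10-KO libraries and 77.2 and 75.8 RPKM in the WT libraries. Both Naa10-KO values were below both WT values, with a fitted log2 difference of -0.09 (SE 0.07, limma adjusted p = 0.499). The 95% interval of that difference was -0.29 to 0.11. Uhrf1, the factor that guides Dnmt1, had 114 and 128 RPKM in Naa10-KO and 132 and 139 RPKM in WT. It lay lower in both Naa10-KO libraries, and the gap to the nearer WT library was 2.52% of the WT mean (log2 difference -0.16, SE 0.09, 95% interval -0.41 to 0.09, limma adjusted p = 0.369). Part of the Uhrf1 transcript has a copy, Gm5648, with 98.3% identity over 1590 bases and no row under that name, so its level is uncertain to that extent.

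Among the de novo genes, the Naa10-KO libraries lay below WT for Dnmt3a and above it for Dnmt3b and Dnmt3l. Dnmt3a had 10.6 and 12.5 RPKM in Naa10-KO and 15.3 and 15.1 RPKM in WT, or 76.1% of the WT mean (log2 difference -0.37, SE 0.12, limma adjusted p = 0.198). Dnmt3b had 76.4 and 60.0 RPKM in Naa10-KO and 52.3 and 53.9 RPKM in WT, or 128% of the WT mean (log2 difference 0.35, SE 0.14, limma adjusted p = 0.258). In both genes the WT libraries nearly coincided and the Naa10-KO libraries were the ones that spread. Dnmt3l had 262 and 192 RPKM in Naa10-KO and 174 and 168 RPKM in WT, or 133% of the WT mean (log2 difference 0.39, SE 0.17, limma adjusted p = 0.277). The 95% intervals were -0.70 to -0.04 for Dnmt3a, -0.04 to 0.74 for Dnmt3b and -0.08 to 0.87 for Dnmt3l. Dnmt3b shares 93.9% identity over 1434 bases with its rodent paralog Dnmt3c, which has no row under that name. Dnmt3l overlaps Aire on the opposite strand, and no label states a strand-specific protocol. The higher of the 2 Aire rows had 7.94 and 9.81 RPKM in Naa10-KO and 7.80 and 7.74 RPKM in WT, far below Dnmt3l. Opposite-strand genes also overlap Dnmt3a (Dnmt3aos), Dnmt3b (Dnmt3bos), Tet2 (Gm42567), Tet3 (B230319C09Rik) and Tdg (Glt8d2). None of these has a row under its name, so their part in the values cannot be given.

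**Figure D2:**
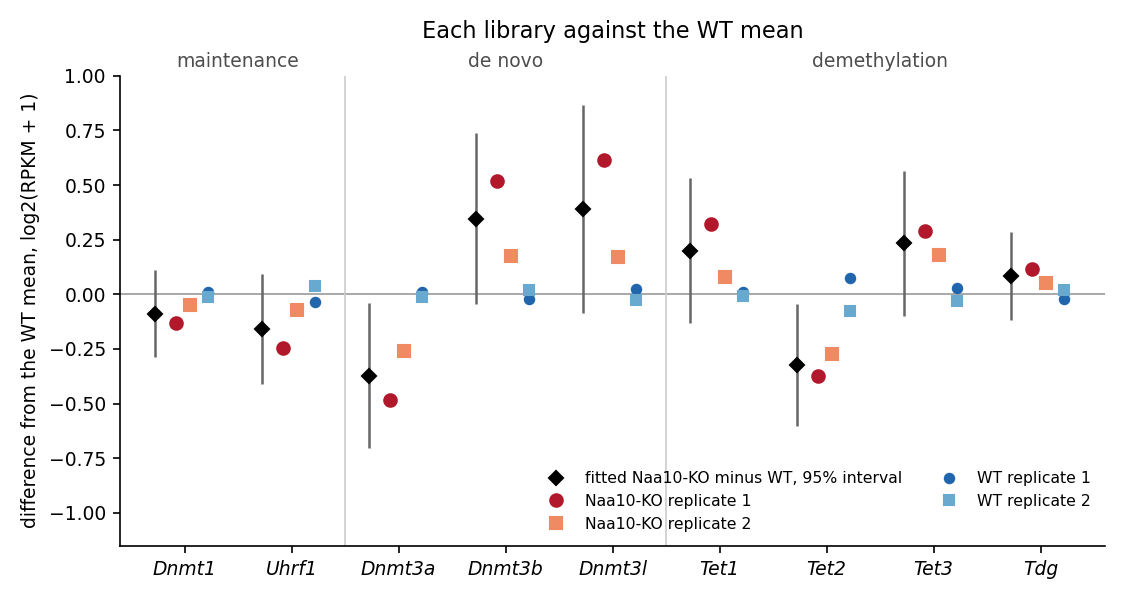
Difference of each library from the WT mean on the log2(RPKM + 1) scale for the 9 genes, with the fitted Naa10-KO minus WT difference and its 95% interval as black diamonds and lines. The interval holds 0 for 7 genes and lies below 0 for Dnmt3a and Tet2; none passed after adjustment.

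Among the demethylation genes, Tet2 lay lower in Naa10-KO and the other 3 higher. Tet2 had 20.1 and 21.6 RPKM in Naa10-KO and 27.8 and 24.9 RPKM in WT, or 79.1% of the WT mean (log2 difference -0.32, SE 0.10, 95% interval -0.60 to -0.04, limma adjusted p = 0.191). It was the one member whose WT libraries differed more than its Naa10-KO libraries. Tet1, a main methylcytosine dioxygenase of ESCs, had 20.1 and 16.9 RPKM in Naa10-KO and 16.0 and 15.8 RPKM in WT (log2 difference 0.20, SE 0.12, 95% interval -0.13 to 0.53, limma adjusted p = 0.386). Its second Naa10-KO library was at 106% of the WT mean and its first at 126%. Tet3, which acts on the paternal genome of the zygote, had 1.73 and 1.53 RPKM in Naa10-KO and 1.28 and 1.19 RPKM in WT (log2 difference 0.23, SE 0.12, limma adjusted p = 0.329). At this low level the log2(RPKM + 1) scale understates the ratio, which was 1.32 between the means, and the depth corresponds to an estimated 127 and 130 fragments per kilobase in Naa10-KO and 64.9 and 61.6 in WT. Tdg had 55.7 and 53.3 RPKM in Naa10-KO and 50.6 and 52.2 RPKM in WT (log2 difference 0.08, SE 0.07, 95% interval -0.12 to 0.29, limma adjusted p = 0.526). The gap between its genotypes, 2.14% of the WT mean, was the smallest of the 9, and its value is uncertain because the copies Tdg-ps, Gm9855 and Gm5597, none with a row under that name, match it at 98.7% to 99.3% identity over 1193 to 2968 bases.

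By role, the mean log2(RPKM + 1) of the maintenance genes was 6.50 and 6.62 in Naa10-KO and 6.67 and 6.69 in WT. The de novo genes averaged 5.95 and 5.76 in Naa10-KO and 5.74 and 5.73 in WT, and the demethylation genes 4.02 and 3.94 in Naa10-KO and 3.95 and 3.91 in WT. Maintenance thus lay lower and de novo higher in both Naa10-KO libraries, while the demethylation mean of Naa10-KO replicate 2 lay between the WT libraries. The de novo mean stood below the maintenance mean by a difference of -0.55 and -0.86 in Naa10-KO and of -0.93 and -0.97 in WT. The gap was narrowest in Naa10-KO replicate 1 and is given as a description. The de novo mean hides opposite members, since Dnmt3a lay on the other side of WT from Dnmt3b and Dnmt3l; by summed level the de novo genes had 349 and 265 RPKM in Naa10-KO and 242 and 237 RPKM in WT, most of it Dnmt3l.

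Ratios within a library, which are free of a library's scaling, showed the balance inside each class. Dnmt3b stood at 7.24 and 4.80 times the level of Dnmt3a in Naa10-KO and at 3.43 and 3.58 times in WT. Tet1 stood at 1.00 and 0.782 times the level of Tet2 in Naa10-KO and at 0.578 and 0.634 times in WT. For both ratios the genotypes did not overlap, which follows from the opposite sides of WT on which the paired genes lay. The Naa10-KO minus WT difference was -0.75 for the log2 ratio of Dnmt3a to Dnmt3b and 0.55 for that of Tet1 to Tet2. An exact two-sided permutation test gave p = 0.333 for each of these 2 ratios, before and after adjustment, which is the smallest p that 2 libraries against 2 allow. Another 6 ratios were chosen after their values were seen, and 2 of them overlapped between genotypes. Dnmt3l stood at 3.43 and 3.21 times Dnmt3b in Naa10-KO and at 3.33 and 3.12 times in WT. Dnmt1 stood at 0.613 and 0.576 times Uhrf1 in Naa10-KO and at 0.585 and 0.547 times in WT. The other 4 did not overlap. For Dnmt3l to Dnmt3a and for Dnmt3b to Dnmt1 this again follows from the sides of the genes. The share of ratios between other rows that do not overlap was not computed. Dnmt3l stood at 24.8 and 15.4 times Dnmt3a in Naa10-KO and at 11.4 and 11.2 times in WT. Against Dnmt1, Dnmt3b stood at 1.09 and 0.811 times in Naa10-KO and at 0.678 and 0.710 times in WT, and Dnmt3a at 0.151 and 0.169 times in Naa10-KO and at 0.198 and 0.198 times in WT. Tet3 stood at 0.0857 and 0.0904 times Tet1 in Naa10-KO and at 0.0799 and 0.0750 times in WT.

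The Naa10-KO libraries did not lie equally far from WT. For all 9 members Naa10-KO replicate 1 was farther from the WT mean than replicate 2, beside 60.6% of all tested rows and 60.8% of the rows whose genotypes did not overlap. Dnmt3l was at 153% of the WT mean in replicate 1 and at 113% in replicate 2, and Dnmt3b at 144% and 113%. Dnmt3a was at 69.6% in replicate 1 and at 82.5% in replicate 2. Only Dnmt3l in replicate 1 was past 1.5-fold from the WT mean among the 9 members and both Naa10-KO libraries. The share of all tested rows past that fold was not computed, so this is a description only. The call of no member passing rests on both Naa10-KO libraries: taken alone against WT, replicate 1 gave 7 members past the threshold, beside 59.4% of all tested rows, and replicate 2 gave 2 (Dnmt3a and Dnmt3b), beside 41.5%. These fits assume a lone library to vary like the WT pair.

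**Figure D3:**
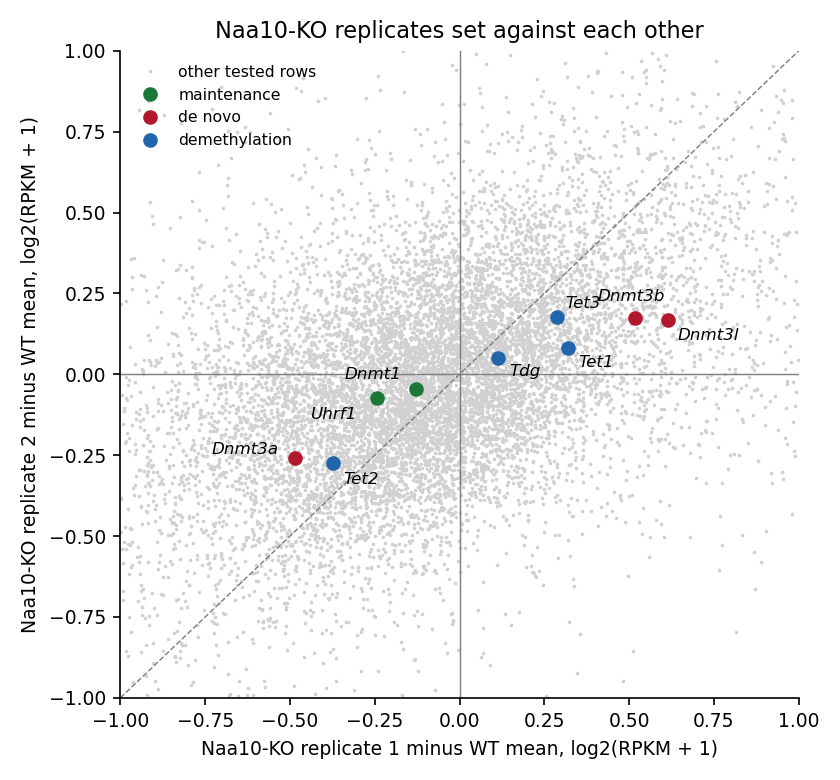
Difference of Naa10-KO replicate 1 (horizontal) and replicate 2 (vertical) from the WT mean on the log2(RPKM + 1) scale, with the 9 genes coloured by role over the other tested rows in grey. All 9 lie in the quadrants where the replicates share a direction and closer to the horizontal axis than to the vertical one; 951 rows beyond 1 on either axis are not drawn.

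Fibroblast markers were also most abundant in Naa10-KO replicate 1. Of 11 listed, 10 had a row, none was at 0 in any library, and their summed level was 179 and 44.2 RPKM in Naa10-KO and 86.5 and 94.0 RPKM in WT. Replicate 1 was the highest library for 8 of these 10 and replicate 2 the lowest in the sum. Markers of the formative state that follows naive pluripotency, 6 of 6 with a row, summed to 126 and 103 RPKM in Naa10-KO and 82.8 and 80.3 RPKM in WT. Most of that sum was Dusp6, a feedback inhibitor of ERK signalling, at 81.4 and 66.9 RPKM in Naa10-KO and 54.3 and 53.0 RPKM in WT. Dusp6, Fgf5 and Foxd3 lay above both WT libraries in both Naa10-KO libraries, as 24.4% of all tested rows did. Otx2, Pou3f1 and Sall2 overlapped between genotypes. The 7 primitive endoderm markers summed to 18.1 and 23.4 RPKM in Naa10-KO and 23.4 and 20.5 RPKM in WT. Lama1, the largest part of that sum, lay below WT in both Naa10-KO libraries, as 34.9% of all tested rows did. Sox7, Gata6 and Foxa2 lay above, the last 2 of them under 1 RPKM in every library. Gata4, Sox17 and Dab2 overlapped. The part of fibroblast or formative cells in the values of Dnmt3a, Dnmt3b and Dnmt3l was not tested, and in bulk RNA fewer cells of a type cannot be told apart from less RNA per cell.

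Among themselves the members paired by their centred values over the 4 libraries, as a description. The closest pairs were Tet1 with Tet3, at a Euclidean distance of 0.10 on the log2(RPKM + 1) scale, Dnmt3b with Dnmt3l at 0.11, Dnmt1 with Uhrf1 at 0.12 and Dnmt3a with Tet2 at 0.14. Across 11406 other single-symbol rows, those nearest to Dnmt3a were Ift88, Peli1 and Slc24a1, at distances of 0.0084 to 0.019. Those nearest to Dnmt3b were Gpc1, Phlda2 and Btbd3, at 0.017 to 0.031. With 4 libraries many rows come this close, and nothing more is read from it.

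The other genes of the pathway were described through 6 lists with 62 genes, of which 60 had a row and 59 were tested; Kdm1b and Cxxc4 are not analysed here and Zbtb4 was below the filter. None of the 59 passed in either direction with limma, and 15 had an unadjusted p under 0.05, beside 22.1% of all tested rows. The Naa10-KO pair lay wholly above the WT pair in 17 rows and wholly below in 24, beside 24.4% and 34.9% of all tested rows. The median difference was -0.06 over the 59 rows and -0.06 over all tested rows.

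Partners of maintenance methylation lay mostly below WT, in 7 of 9 tested rows, with 1 above. Of all tested rows, 34.9% lay below and 24.4% above. The median log2 difference of the list was -0.12, beside -0.06 over all tested rows, and no list was tested as a set. Uhrf2, the relative of Uhrf1, had 8.86 and 9.08 RPKM in Naa10-KO and 12.2 and 12.6 RPKM in WT (log2 difference -0.43, limma adjusted p = 0.138). Its values nearly coincided within each genotype. The 1 row above WT was Dppa3, whose product keeps Uhrf1 off chromatin, at 61.2 and 140 RPKM in Naa10-KO and 37.9 and 44.0 RPKM in WT (log2 difference 1.16, SE 0.43, limma adjusted p = 0.234). Dppa3 was higher in replicate 2 than in replicate 1, unlike the 9 members, for which replicate 1 was the farther library.

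Regulators of de novo methylation had 3 of 7 tested rows above and 1 below, beside 24.4% and 34.9% of all tested rows. Their median was 0.09. Kdm2b, which binds unmethylated CpG islands, had 119 and 90.9 RPKM in Naa10-KO and 73.0 and 74.3 RPKM in WT (log2 difference 0.49, limma adjusted p = 0.188). Whsc1, an H3K36 methyltransferase, had 6.31 and 6.93 RPKM in Naa10-KO and 9.02 and 8.84 RPKM in WT (log2 difference -0.38, limma adjusted p = 0.168). Prdm14, a repressor of the Dnmt3 genes in ESCs, straddled WT, at 4.22 and 8.95 RPKM in Naa10-KO and 7.31 and 7.86 RPKM in WT. Prdm14 was named after its values were seen.

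Partners of the Tet enzymes and genes that supply their cofactor had 3 of 7 tested rows above and 2 below. The shares of all tested rows were 24.4% above and 34.9% below, and the list median was 0.05. Qser1, which has been reported to work with Tet1 at bivalent promoters in human ESCs, had 19.4 and 18.6 RPKM in Naa10-KO and 13.3 and 13.9 RPKM in WT (log2 difference 0.46, limma adjusted p = 0.127). Idh1, which makes the 2-oxoglutarate that Tet enzymes need, had 25.4 and 31.2 RPKM in Naa10-KO and 41.2 and 41.4 RPKM in WT (log2 difference -0.53, limma adjusted p = 0.144). Both genes lay clear of WT in each Naa10-KO library, as 59.3% of all tested rows did. Their opposite directions follow from their choice as the rows with the smallest adjusted p in each direction.

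The next list held base excision repair genes, which include other DNA glycosylases and the genes of the later repair steps, and the Gadd45 genes. It had 8 of 14 tested rows below WT and 2 above, beside 34.9% and 24.4% of all tested rows. Its median was -0.28. Gadd45b, a stress-induced gene linked to active demethylation, had 15.7 and 23.7 RPKM in Naa10-KO and 33.8 and 33.8 RPKM in WT (log2 difference -0.77, limma adjusted p = 0.167). Lig3, a DNA ligase of the final repair step, had 14.9 and 16.9 RPKM in Naa10-KO and 13.7 and 11.5 RPKM in WT (log2 difference 0.32, limma adjusted p = 0.271). The median of this list was the farthest from that of all tested rows among the 6.

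Genes of methyl donor supply had 5 of 14 tested rows above and 4 below, beside 24.4% and 34.9% of all tested rows. Their median was -0.0066. Ahcyl1, a relative of the enzyme that breaks down S-adenosylhomocysteine, had 18.2 and 24.7 RPKM in Naa10-KO and 29.96 and 29.04 RPKM in WT (log2 difference -0.46, SE 0.17, limma adjusted p = 0.234). The folate carrier gene Slc19a1 had 7.94 and 6.88 RPKM in Naa10-KO and 4.12 and 4.66 RPKM in WT (log2 difference 0.64, limma adjusted p = 0.133). Neither passed. Each had non-overlapping genotypes, as 59.3% of all tested rows did, and both were named for the smallest adjusted p of their direction.

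Readers of methylated CpG had 3 of 8 tested rows above and 2 below, beside 24.4% and 34.9% of all tested rows. Their median was 0.10. Mbd3, a subunit of the NuRD complex that binds methylated CpG poorly in mammals, had 73.6 and 60.4 RPKM in Naa10-KO and 44.5 and 45.9 RPKM in WT (log2 difference 0.55, limma adjusted p = 0.139). Its close relative Mbd2 had 10.4 and 10.3 RPKM in Naa10-KO and 13.2 and 11.7 RPKM in WT (log2 difference -0.24, limma adjusted p = 0.283). They were named as the rows with the smallest adjusted p in each direction, so their opposite directions follow from that choice. The difference between them was not tested.

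**Figure D4:**
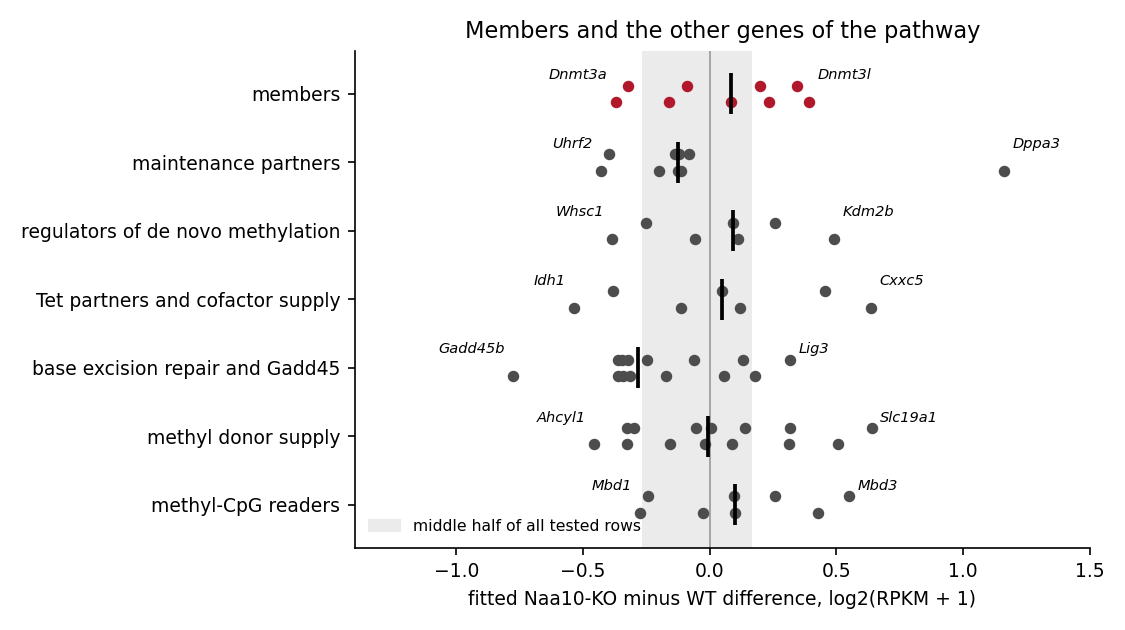
Fitted Naa10-KO minus WT difference on the log2(RPKM + 1) scale for the 9 members in red and for the tested rows of each list in dark grey, with the list median as a black bar and the lowest and highest gene named. The grey band runs from -0.265 to 0.162, the quartiles of all tested rows, and holds the medians of the members and of 5 of the 6 lists.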

How the data were processed

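RNA of 4 ESC libraries, 2 Naa10-KO and 2 WT by their titles, was analysed from 1 deposited table per library. The values are RPKM made by the authors, per the file headers; the build mm9 and the tools Cufflinks and bedtools come from the submitters' processing notes, and neither aligner, annotation nor versions are given in the sources used here. Rows were joined by position and kept as deposited, 404 of them with several symbols. Exact 0 values occurred in 323 rows, none of them a member. Of sample columns, 0 were left unused.

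Values entered limma (version 3.58.1, R 4.3.3) as log2(RPKM + 1). The two-sided test used a mean-variance trend and the 11912 rows that reached 1 RPKM in 2 or more of the 4 libraries; p-values were adjusted by Benjamini-Hochberg with a threshold of 0.05. RPKM is no count, so no count test was run. The fit was checked on simulated data with the same spread in both genotypes. In the real data the Naa10-KO libraries differed more than the WT libraries, a setting that check does not cover. Depth was estimated from whole-fragment steps in low values of genes over 500 nt with 1 transcript. The number of libraries limits the precision, and the part of depth in it was not tested. Python 3.11.15 and pandas 2.3.3 handled tables. Near-identical transcripts and overlapping genes were sought in GENCODE M21 (GRCm38).

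The members, the lists and the tests were chosen with earlier results of these data known. Of the list genes, 1 is not reported here and is left out of the list counts. Named genes were the 9 members, Naa10 and the row with the smallest adjusted p in each direction of each list. The 3 rows nearest to Dnmt3a and to Dnmt3b were named too. Prdm14, Dusp6, the other cell type markers named singly and the 6 further ratios were added after their values were seen. Aire and the other opposite-strand genes were named for their overlap with a member. The replicate numbers name no shared animal or batch, so the fit had no block. Alternatives covered the pseudocount, the filter, scaling, the trend, a block and each library left out.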

Additional observations from a re-analysis of the deposited data

How the results depend on the processing

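Under the 8 alternatives that kept all 4 libraries, and under each library left out, each member kept its direction. No member passed in any of those 8, with adjusted p of 0.165 to 0.782. With a library left out, the members past the threshold numbered 0 to 7, those past it without a Naa10-KO library only; the lone library is then assumed to vary like the other genotype's pair, so these fits do not show which library carries a difference. Tet3 was not tested at a mean of 5 RPKM or more.

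Over all rows, 91 passed (26 higher, 65 lower in Naa10-KO). There were 40 (16 higher, 24 lower) with no filter on low values, 42 lower at a mean of 5 RPKM or more, and 0 (0 higher, 0 lower) with rows at 0 and small RNA rows left out. A replicate block gave 44 (17 higher, 27 lower) and 0 members; deviations of same-numbered libraries correlated at -0.21 over rows, and the crossed replicate block, added after seeing the data, gave 133 and 0 members. With a library left out the count ran from 12 to 7081 (5 to 2820 higher, 7 to 4261 lower). The lists, at 0 in each of those 8 alternatives and not counted under the crossed block, ran from 0 to 7 for maintenance partners, 0 to 5 for regulators of de novo methylation, 0 to 6 for Tet partners, 0 to 11 for base excision repair, 0 to 12 for methyl donor supply and 0 to 3 for readers. The cause of these changes was not tested. Values below 0.270 RPKM in every library are not analysed here.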
